A study of Mus musculus with 6 samples.

Results

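The genes described are the mouse genes for ubiquitin-activating enzymes (Uba), ubiquitin-conjugating enzymes (Ube2) and the Ube3, Ube4 and Ubr ligases. They were chosen by symbol alone: Ube2 followed by a letter, Ube3a to Ube3c, Ube4a or Ube4b, and the numbered Uba and Ubr genes. On the array, 46 of the 18193 genes named by a single symbol met this rule, and 124 probe sets read them. A probe set is a group of short oligonucleotides against 1 transcript region, and 35 of the 46 genes had several, up to 7. A further 4 probe sets carried a matching symbol together with the names of other genes and were not used.

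Ubiquitin is a small protein that is attached to other proteins through a chain of enzymes. An E1 activates it, an E2 conjugating enzyme carries it, and an E3 ligase brings the E2 to the substrate. Chains of ubiquitin send proteins to the proteasome or change their location and partners, and in neurons this system trims synaptic proteins and shapes axon growth.

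The study recovered RNA bound to HuD, the product of Elavl4, a neuronal RNA-binding protein of the ELAV family that binds U-rich and AU-rich stretches of mRNAs and is known for stabilising them. RNA from mouse hippocampus was hybridised to 6 one-colour arrays in 3 groups. The HuD group held 3 arrays of RNA taken from protein-G beads with an anti-myc antibody against a transgenic HuD protein. The IgG group held 2 arrays of RNA from beads carrying non-immune IgG, and the input group held 1 array of total RNA. The tissue was shared by all groups and the protein-G beads by both pulldowns. Whether the IgG pulldowns came from mice with the transgene, the transgene's promoter, the strain, sex and age of the mice, and any pooling of animals are not stated in the sources. No label ties an array to a separate animal or preparation, so the spread behind each p-value is that among these arrays and may be technical.

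Values are signals, that is intensities on a linear scale that the authors had already brought to a common level, with a trimmed mean of 150 on every array. Differences are of log2(signal + 32), which understates the change of dim genes, and are printed ± the standard error (SE). The fit was limma's linear model over the 9097 genes whose mean log2 value was above the median of all genes, with 1 probe set per gene. A gene was called higher or lower where the Benjamini-Hochberg adjusted p was under 0.05. The IgG pair was the noisier one. Between its arrays the log2 values of the 37 tested ubiquitin enzyme genes differed with an SD of 0.655, against 0.36 to 0.396 between HuD arrays, and a single variance per gene served all groups.

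Markers of other cell types moved with the groups, in part in both directions within a list. Of the oligodendrocyte genes 6 of 8 tested were lower in HuD than in IgG, of the microglial genes 5 of 6, of the endothelial genes 1 of 3 and of the choroid plexus and blood genes 0 of 3, with 0 higher in these 4 lists. Of 9 astrocyte genes 5 were lower, while Gja1 (8019.7 against 4562 on average) and Sox9 were higher. Of 14 neuronal genes 4 were lower: Slc32a1 at -1.90, Zbtb20 at -1.59, Gad1 at -1.43 and Rbfox3 at -0.62. The higher ones were 2, Snap25 at 0.84 and Neurod2 at 0.83. Of the inhibitory markers in the list, Gad1 and Slc32a1 were thus lower, while Gad2 at 0.22 did not pass. The summed oligodendrocyte signal was 14242.9 to 18681 in HuD, 23797 and 29719.6 in IgG and 19873 in input. The microglial sum was 1518 to 2067 in HuD, 2937 and 4679 in IgG and 4536 in input, and the endothelial sum 169.9 to 241, 403 and 479.9, and 396. The astrocyte sum was 14532 to 16667 in HuD, 17432 and 22383 in IgG and 18588 in input, and the neuronal sum, to which Snap25 and Syt1 gave the most in HuD, was 29097 to 34473, 29751 and 29298, and 28029. The choroid plexus and blood sum, nearly all of it Ttr, was 12249.9 to 15368 in HuD, 16316 and 18672.5 in IgG and 9478 in input, below every pulldown. The lowest gene of the microglial, endothelial and choroid plexus and blood lists in input was Trem2 at 5.2, Pecam1 at 2.3 and Hba-a1 at 1.3, while others were bright, such as Csf1r at 2993 and Ttr at 8913.

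Ratios of 3′ to middle and 3′ to 5′ control probe sets are signs of RNA integrity. For Actb the ratio to the middle was 2.27 to 4.31 in HuD, 6.81 and 10.21 in IgG and 3.82 in input. The ratio to the 5′ end overlapped, at 5.55 to 31.24 in HuD, 17.87 and 34.42 in IgG and 11.84 in input. Both ratios of Gapdh overlapped as well, at 3.46 to 4.38 in HuD against 2.8 and 4.96 in IgG to the middle, and 10.36 to 16.4 against 11.53 and 18.64 to the 5′ end. The part of the markers and of RNA integrity in the results was not tested. The HuD and IgG arrays hold RNA recovered on beads, so a marker difference between them need not reflect the cells present. Recovery of an RNA by the pulldown, fewer cells of a type and less RNA per cell cannot be told apart here.

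By their brightest probe set, 12 of the 21 E2 genes tested were higher in the HuD than in the IgG pulldown, and 3 of the 5 Ubr genes were lower. Of the 46 genes, 37 were bright enough to be tested. In HuD against IgG, 18 (48.6%) were higher, 4 (10.8%) were lower and 15 did not pass the test, where 21.5% of all genes tested were higher and 34% lower. The median difference over the 37 was 0.32, against -0.28 over all genes tested. Bright genes had another split. Among the 4549 brightest genes, 32.7% were higher and 29.2% lower, with a median of 0.09. The 28 ubiquitin enzyme genes among these had a median of 0.94. The part of brightness in the shares was not tested. When each array was instead centred on its 75th percentile, a scaling that moved the median of all genes up by 0.316, the split over all genes turned to 27.9% higher and 18.7% lower. The ubiquitin enzyme genes then still divided into 18 higher and 4 lower, with a median of 0.63. In all 22 called genes the HuD and IgG arrays did not overlap, which a call on these same arrays makes likely. The arrays of some uncalled genes, such as Ube2q1 and Ube2k, did not overlap either, and the share over all genes was not counted. The sample titles carry either of 2 endings, le1 and e1_le1, each holding HuD and IgG arrays. The 22 called genes had the same sign of difference within both. These are the arrays that gave the calls, so this agreement was largely fixed by the selection and is not replication.

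**Figure D1:**
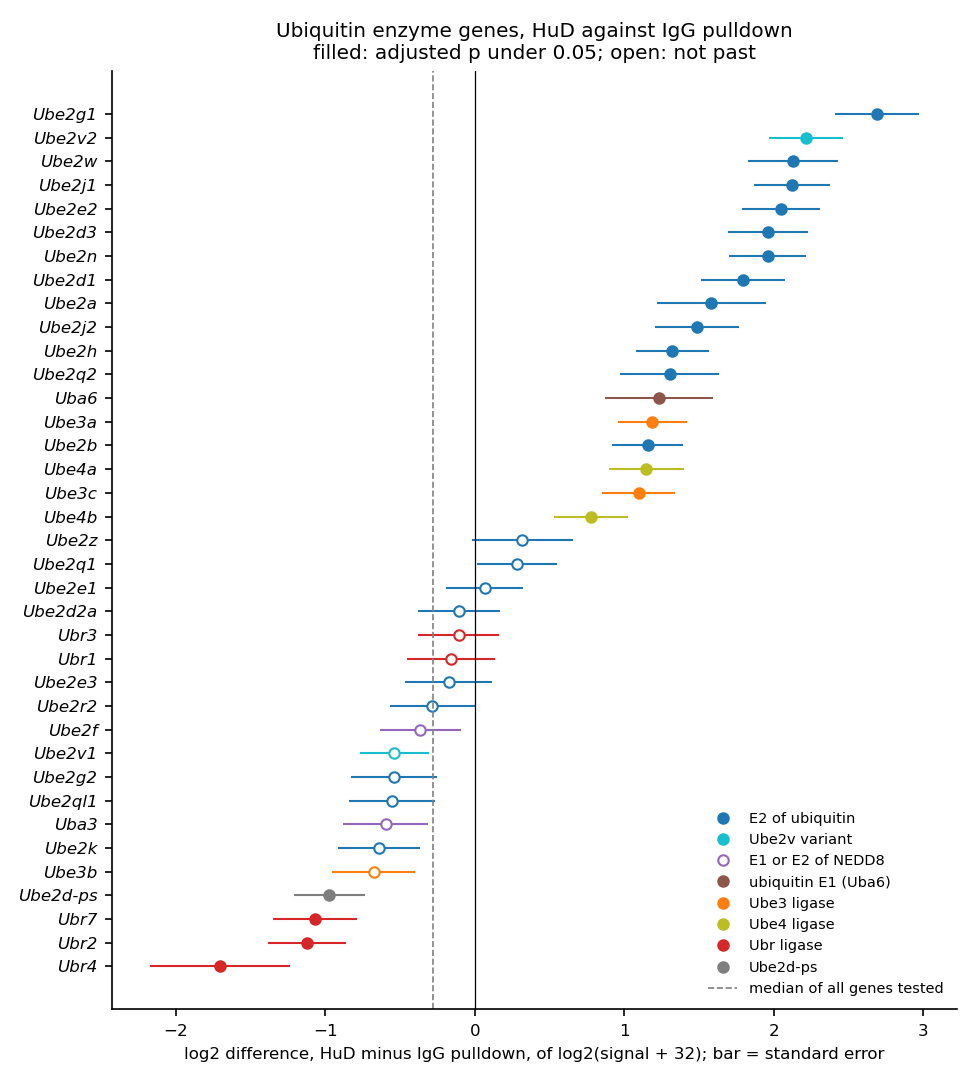
Log2 difference between HuD and IgG pulldown (x axis, log2 of signal + 32) for the 37 tested ubiquitin enzyme genes (y axis, ordered by size and coloured by role). Points are limma estimates from 3 HuD and 2 IgG arrays, bars are standard errors, filled points passed the test and the dashed line is the median of all 9097 genes, -0.28. E2 genes make up most of the upper end, from Ube2g1 at 2.69, and 3 of the 4 lowest points are Ubr ligases, down to Ubr4 at -1.70.

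The E2 enzymes of ubiquitin held most of the higher calls. Of 21 tested, 12 were higher in HuD than in IgG, 0 were lower by the limma test (1 at an unadjusted p under 0.05) and 9 did not pass. Their median difference was 1.30. Quantile normalization, testing all genes without a filter, taking the mean of a gene's probe sets, leaving out the first IgG array, or pairing the arrays whose titles share a number and an ending (1 HuD and 1 IgG array in each of 2 pairs) each gave 1 lower E2 gene in place of 0. With the mean of a gene's probe sets, Ube2a, Ube2b and Ube2j2 lost their higher calls. In HuD against input, 8 of the 21 were higher and 2 lower, where 15.7% of all genes tested were higher and 25.9% lower.

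The largest difference belonged to Ube2g1, an E2 that extends the ubiquitin chains which lead to degradation. Its signal was 6356, 8299.5 and 6482 on the HuD arrays, 795 and 1401 on the IgG arrays and 1184 in input. Each HuD array was thus far above every other array, and the IgG arrays bracketed the input. The difference from IgG was 2.69 ± 0.28, or 6.45-fold (limma adjusted p = 0.000146). Ube2g2, the other gene of this letter and an E2 of the degradation pathway at the endoplasmic reticulum, read 206, 209 and 132 in HuD against 331 and 228 in IgG and 385 in input. All of its HuD arrays were below the IgG arrays, but the difference of -0.54 ± 0.29 did not pass the test (limma adjusted p = 0.128).

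Ube2n and the Ube2v variants act together. Ube2n carries the ubiquitin and a Ube2v protein, which has no active cysteine, positions it for a chain type used in DNA repair and signalling. Ube2v2 read 2626, 3344 and 2762 in HuD, 536 and 668 in IgG and 579.8 in input. Ube2n read 3375, 4409 and 3004 in HuD, 1009 and 783 in IgG and 1166 in input. In both genes the HuD arrays lay well clear of the IgG and input arrays. The differences from IgG were 2.21 ± 0.25 for Ube2v2 and 1.96 ± 0.26 for Ube2n (limma adjusted p = 0.000187 and 0.000319). Ube2v1, the other variant, ran the opposite way at 1612, 1584 and 1489.9 in HuD against 2470.5 and 2104 in IgG and 2776 in input. Its HuD arrays were all lower than its IgG arrays, yet the difference of -0.54 ± 0.23 did not pass (limma adjusted p = 0.0657). It was called lower under quantile normalization, at -0.75, and without the second IgG array, at -0.65. No test compared Ube2v1 with Ube2v2, or any other gene with its relative.

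The Ube2d genes encode closely related E2s that start chains with many RING ligases. Ube2d3 read 7126, 6759.5 and 8088 in HuD, 1392 and 2465 in IgG and 2181 in input. Ube2d1 read 854, 788 and 519 in HuD, 186 and 175 in IgG and 254 in input. Both were higher on every HuD array than on any other array, by 1.96 ± 0.27 for Ube2d3 and 1.80 ± 0.28 for Ube2d1 against IgG (limma adjusted p = 0.000371 and 0.000699). Ube2d2a did not follow them. Its signals of 2787, 3714 and 4396 in HuD overlapped the 3129.9 and 4719.6 of IgG, and the difference was -0.11 ± 0.27 (limma adjusted p = 0.755). Ube2d-ps, an annotated pseudogene of this set whose probes may also bind its close relatives, read 57.3, 47.7 and 64.7 in HuD against 152 and 131 in IgG and 160.4 in input. It was lower in HuD by 0.97 ± 0.24 on the log2 scale (limma adjusted p = 0.00593), the difference being -0.97. Its other probe set, at 50.2, 42.7 and 56.6 in HuD against 47.9 and 126.2 in IgG, overlapped between the groups. The difference there was -0.46 and did not pass in the fit by probe set described below. Ube2d2b stayed under 10 on every array and was not tested.

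The Ube2e genes divided in the same manner. Ube2e2 read 4573, 6363 and 5056 in HuD, 1026 and 1531 in IgG and 953 in input, and was higher by 2.05 ± 0.26 (limma adjusted p = 0.000284). Ube2e1 and Ube2e3 overlapped between the groups. Ube2e1 read 2324, 3020.3 and 2084 in HuD and 2003 and 2716 in IgG, a difference of 0.07 ± 0.26. Ube2e3 read 1601, 1669.8 and 1706 in HuD and 1344 and 2612 in IgG, a difference of -0.17 ± 0.29. Without the first IgG array, which held the lower value, Ube2e3 was called lower at -0.65.

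Ube2j1 and Ube2j2 are anchored in the membrane of the endoplasmic reticulum and serve the removal of misfolded proteins. Ube2j1 read 3369, 2511 and 3192 in HuD, 578 and 764 in IgG and 949 in input, a difference from IgG of 2.12 ± 0.26 (limma adjusted p = 0.000247). Ube2j2 read 919, 735 and 604 in HuD, 288 and 206 in IgG and 376 in input, a difference of 1.49 ± 0.28 (limma adjusted p = 0.00162). Both genes of the letter were higher in HuD with no overlap. Of the Ube2q genes, Ube2q2 was higher and Ube2q1 did not pass. Ube2q2 read 464, 401 and 218 in HuD, 153 and 94.2 in IgG and 205 in input, a difference of 1.30 ± 0.33 (limma adjusted p = 0.00709). Ube2q1, at 652, 956 and 652 in HuD against 612 and 598 in IgG, differed by only 0.28 ± 0.27, although no array overlapped.

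Ube2w, an E2 that attaches ubiquitin to the amino terminus of proteins, read 1424, 2027 and 1779.8 in HuD, 270.4 and 503 in IgG and 455 in input. The gap left no overlap, and the difference was 2.13 ± 0.30 (limma adjusted p = 0.000432). Ube2a and Ube2b are the mammalian counterparts of yeast Rad6 and act on histones and in DNA repair. Ube2a read 2122, 1929.5 and 2317 in HuD, 401 and 1158 in IgG and 1132 in input. Its IgG arrays stood far apart, so the difference of 1.58 ± 0.37 fell to 0.85 without the first IgG array, which still passed. Ube2b read 4744, 3768 and 4677 in HuD, 1746 and 2166 in IgG and 2728 in input, a difference of 1.16 ± 0.23 (limma adjusted p = 0.00234). Ube2h, the last of the E2 genes called higher, read 2682, 2959 and 3656 in HuD against 1168 and 1254 in IgG and 1336 in input, a difference of 1.32 ± 0.24 (limma adjusted p = 0.00144).

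**Figure D2:**
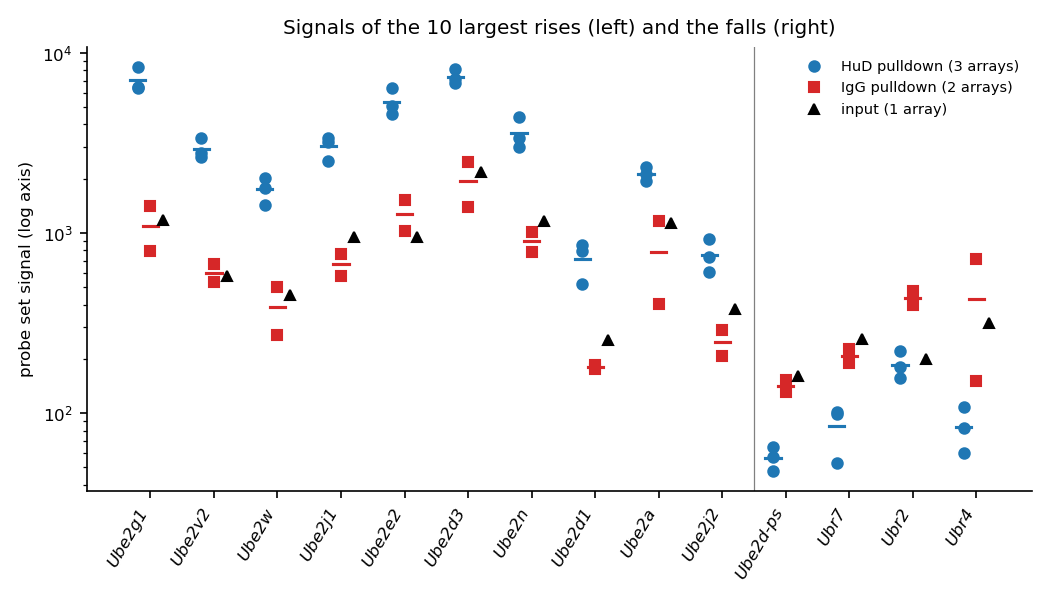
Probe set signal (y axis, log scale) on each array for the 10 genes with the largest higher calls (left of the line) and the 4 lower calls (right), one column per gene. Circles are the 3 HuD arrays, squares the 2 IgG arrays, triangles the input array, and short bars the group means; the HuD and IgG points of a gene never overlap, and the widest IgG gaps are those of Ube2a (401 and 1158) and Ubr4 (712 and 152).

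Among the remaining tested E2 genes, Ube2k, an E2 that binds huntingtin, read 929, 741 and 559 in HuD against 1220.3 and 1085 in IgG and 1378 in input. Its HuD arrays were all below the others, but the difference of -0.64 ± 0.27 did not pass (limma adjusted p = 0.0661), except under quantile normalization, where it was -0.77, and with arrays paired by title number, where it was -0.65. A second Ube2k probe set pointed the other way, at 465, 305 and 475 in HuD against 174 and 399 in IgG. Its difference of 0.56 did not pass in the fit by probe set described below. Ube2ql1 had 565, 548 and 332 in HuD, 734 and 674 in IgG and 1106 in input, a difference of -0.55 ± 0.29 that did not pass either. Ube2r2, a partner of the SCF ligases, and Ube2z, which is charged only by Uba6, overlapped between HuD and IgG, with differences of -0.28 ± 0.28 and 0.32 ± 0.34.

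Of the activating enzymes, 3 were named by a single symbol. Uba6, an E1 that charges ubiquitin, read 360.1, 199 and 192 in HuD, 139 and 46.7 in IgG and 41.9 in input. All HuD arrays exceeded the IgG arrays, and the difference was 1.23 ± 0.36 (limma adjusted p = 0.0145). The call was lost without the first HuD array, at 0.97, or without the second IgG array, at 0.67, and also when all genes were tested without a filter. NEDD8 is a ubiquitin-like protein that switches on the cullin ligases. Its E1 subunit Uba3 read 824, 795 and 1115 in HuD, 1084 and 1749 in IgG and 1689.6 in input. Ube2f, an E2 of NEDD8, read 373, 548 and 429 in HuD, 516 and 654 in IgG and 623 in input. Both overlapped between groups, with differences of -0.60 ± 0.29 and -0.36 ± 0.27, and neither passed. Without the first IgG array Uba3 was called lower, at -0.93. Uba7, the E1 of the interferon-induced protein ISG15, stayed between 22.4 and 51.8 on all arrays and was not tested.

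The Ube3 genes encode ligases of the HECT type, which take ubiquitin from the E2 before passing it on. Ube3a, the gene silenced on the paternal chromosome in neurons and lost in Angelman syndrome, read 2457, 2754 and 2595 in HuD, 1159.9 and 1089.7 in IgG and 787 in input. Ube3c, which acts at the proteasome, read 876, 795 and 776 in HuD, 388 and 342 in IgG and 373 in input. In both genes the arrays of each group lay close together and the groups were far apart. The differences from IgG were 1.19 ± 0.23 for Ube3a and 1.10 ± 0.25 for Ube3c (limma adjusted p = 0.00193 and 0.00389). Ube3b went the other way, at 139, 158 and 156 in HuD against 340.5 and 198 in IgG and 235 in input. Its difference of -0.68 ± 0.28 did not pass (limma adjusted p = 0.0562), but did without the second IgG array, at -1.03, with arrays paired by title number, at -0.71, and, at the same difference, in the fit on means of probe sets.

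Ube4a and Ube4b encode U-box ligases that lengthen chains begun by other ligases. Ube4a read 239.6, 303 and 233 in HuD, 104 and 93.0 in IgG and 86.6 in input, a difference of 1.15 ± 0.25 (limma adjusted p = 0.00337). Ube4b read 1292, 1048 and 1319 in HuD, 717 and 674 in IgG and 517 in input, a difference of 0.78 ± 0.25 (limma adjusted p = 0.0207). Both were higher on all HuD arrays, and the call for Ube4b was lost without the first HuD array (0.73) or the last one (0.72).

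Several of the Ubr ligases recognise destabilising amino-terminal residues in the N-degron pathway. Of the 5 Ubr genes, 0 were higher, also at an unadjusted p under 0.05, and 3 were lower by the limma test. Over all genes tested 21.5% were higher and 34% lower, and at an unadjusted p under 0.05, 2175 of 9097 were higher and 3444 lower. With 5 genes, a departure from these shares cannot be resolved. Ubr4, a very large ligase of the N-degron pathway, read 82.6, 108 and 59.9 in HuD, 712 and 152 in IgG and 315 in input. It had the largest negative difference, -1.70 ± 0.47 (limma adjusted p = 0.0105), but its IgG arrays were far apart. Without the first IgG array the difference was -0.69 and no longer passed, and without the second it was -2.71. Ubr2 read 220.0, 156 and 179 in HuD, 478 and 397 in IgG and 199 in input, a difference of -1.12 ± 0.26 (limma adjusted p = 0.0046). Here it was the IgG arrays that stood out, since the input lay among the HuD arrays. Ubr7 read 53.0, 102 and 98.5 in HuD, 227 and 188 in IgG and 258 in input, a difference of -1.07 ± 0.28 (limma adjusted p = 0.00816) that was lost without the first HuD array, at -0.86. Ubr1 and Ubr3 overlapped between the groups, with 371 to 581 and 614 to 988 in HuD against 409 to 658 and 859 on both arrays in IgG, and differed by -0.16 ± 0.30 and -0.11 ± 0.27.

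A second fit treated each probe set on its own, over the 22519 probe sets in the upper part of the signal range. Of the 124 probe sets for ubiquitin enzyme genes, 90 were tested, 28 were higher in HuD than in IgG, 7 were lower and 55 did not pass, where 14.7% of all probe sets tested were higher and 26% lower. Probe sets of 1 gene share its transcripts, and those whose identifiers end in s or x can also bind other genes. Adjusted p-values in this and the next paragraph are limma's over these probe sets.

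Of the 18 genes called higher, 4 had a single tested probe set and 14 had several. At least 2 probe sets were called in 7 of these 14, and every tested one in Ube2g1 and Ube2n. Their 26 further probe sets gave 10 calls in the same direction, 1 in the opposite direction and 15 that did not pass. Ube2d3 had the most, with 5 of 7 higher and all 7 differences positive, from 0.60 to 2.54. The strongest of these read 3066, 2686 and 2936 in HuD against 378 and 580.9 in IgG. In Ube2v2 the differences were 2.93, 2.21 and -0.11, and in Ube2w they were 2.39, 2.13 and -0.13. The uncalled Ube2v2 probe set was no dim one, at 362, 530.3 and 368 in HuD, 286 and 701 in IgG and 610.4 in input; it was the brightest of the gene's probe sets in input. The uncalled Ube2w probe set lay between 14.5 and 61.0 on all arrays.

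Ube2b was the only gene with calls in both directions. Its bright probe set was higher by 1.16, a second one at 479.5, 295 and 281 in HuD against 325 and 323 in IgG differed by 0.07, and a dim one at 33.2, 4.5 and 21.7 in HuD against 70.8 and 83.3 in IgG differed by -1.11 (adjusted p = 0.00842). In 5 further genes a called probe set stood beside one within 0.3 of 0. These were Ube2j1 with 2.12 and 0.18, Ube2a with 1.58 and -0.21, Ube3c with 1.10 and 0.21, Ube4b with 0.78 and -0.02 and, on the lower side, Ubr2 with -1.12 and 0.07. The second Ube2a probe set was bright, at 252, 449 and 324 in HuD against 207 and 715 in IgG and 473 in input, and overlapped between the groups. The second Ube3c probe set read 294, 225 and 312 in HuD against 258 and 211 in IgG. The second probe sets of Ube2j1, Ube4b and Ubr2 were dim, none above 79.8 on any array. With the mean of a gene's probe sets in place of the brightest, 11 of 37 tested genes were higher than IgG in place of 18. Over all genes 16.4% were then higher and 32.9% lower, and the median over the ubiquitin enzyme genes was 0.12. Ube2a (0.69), Ube2b (0.04), Ube2j2 (0.49), Ube3a (0.35), Ube3c (0.39), Ube4b (0.25) and the lower Ubr2 (-0.28) then lost their calls, and Ube4a was too dim to be tested. Of the 9 genes too dim to be tested by gene, 2 had a probe set called lower in this fit, Ube2o at -1.18 and Ube2cbp at -0.93, and the other 7 were Uba7, Ube2c, Ube2d2b, Ube2l6, Ube2s, Ube2t and Ube2u.

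**Figure D3:**
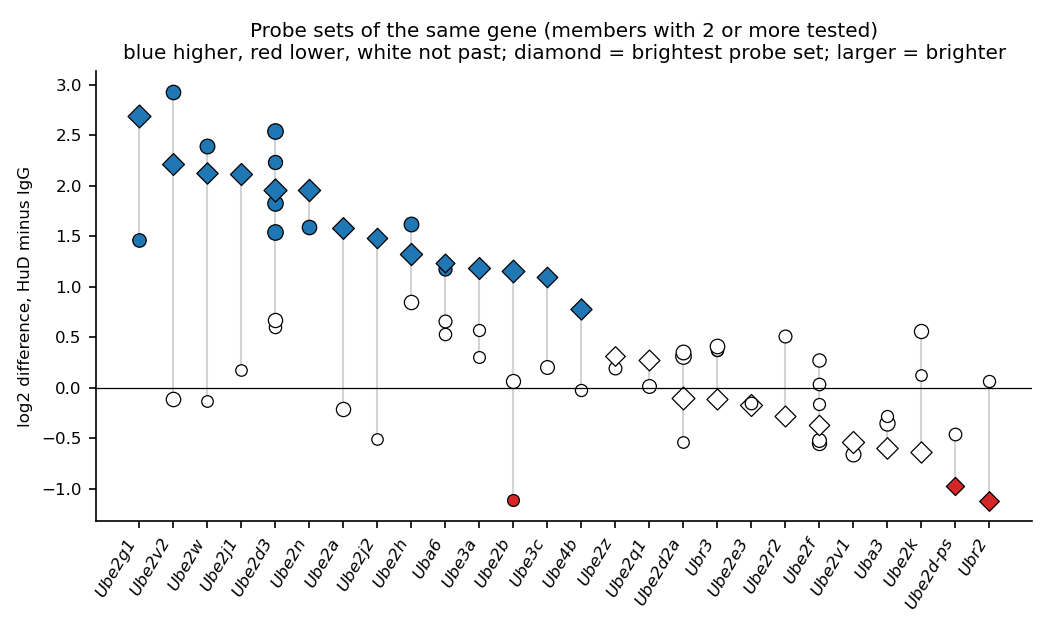
Log2 difference between HuD and IgG pulldown (y axis) for every tested probe set of the ubiquitin enzyme genes that had 2 or more (x axis, one column per gene). Diamonds mark the brightest probe set of a gene, larger symbols are brighter, and blue, red and white stand for higher, lower and not past the test; Ube2d3 has 5 blue points, and Ube2b spans from 1.16 (blue) to -1.11 (red).

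The input array gives a second reference, the RNA present before the pulldown. HuD against input and HuD against IgG share the HuD arrays, so their calls are set side by side and not counted as separate evidence, and the fit took the single input array to be as variable as the pulldown arrays. In HuD against input, 14 of the 37 genes were higher and 6 lower, where 15.7% of all genes tested were higher and 25.9% lower. The median was 0.01, against -0.32 over all genes. The 14 higher genes were all among the 18 that were higher than IgG, and they included Ube2g1 at 2.53 ± 0.35, Ube2e2 at 2.43 ± 0.33, Ube2v2 at 2.26 ± 0.31 and Uba6 at 1.88 ± 0.46. With the probe set brightest in input standing for the gene, Uba6 differed from input by 0.69 and lost its call, and with the mean of its probe sets the difference was 0.85. The 4 that passed against IgG alone were Ube2a, Ube2j2, Ube2q2 and Ube2b, at 0.88 ± 0.46, 0.92 ± 0.35, 0.67 ± 0.42 and 0.67 ± 0.30 against input. In these 4, as in the other 14, all 3 HuD arrays were above the input array. As the 18 were selected for high values on these HuD arrays, this order adds no support, and its share over all genes was not counted.

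Ube2d-ps, Ubr7 and Ubr4 were lower in HuD than in either reference, at -1.12 ± 0.30, -1.35 ± 0.35 and -1.61 ± 0.59 against input. Ube2ql1 at -1.18 ± 0.36, Ube2g2 at -0.98 ± 0.36 and Ube2v1 at -0.82 ± 0.29 were lower than input only. These 6 lower calls depended on the settings: without the first HuD array 1 was called, without the second 3 and without the last one 2, and centring on the 75th percentile gave 1. Ubr2, lower than IgG, differed from input by -0.10 ± 0.33. No gene was called in opposite directions by the comparisons.

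IgG against input gave 0 higher and 0 lower calls among the 37 genes by limma, where 0.022% of all genes tested were higher and 0% lower. At an unadjusted p under 0.05 there was 1 gene, Ubr2, with a difference of 1.02 ± 0.35 and an adjusted p of 0.639. Of the 21 tested E2 genes 2 had a positive difference from input in IgG, with a median of -0.43, where 4002 of all 9097 genes were positive. The median over all 37 genes was -0.20, against -0.07 over all genes tested. The same IgG arrays are the reference in HuD against IgG.

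**Figure D4:**
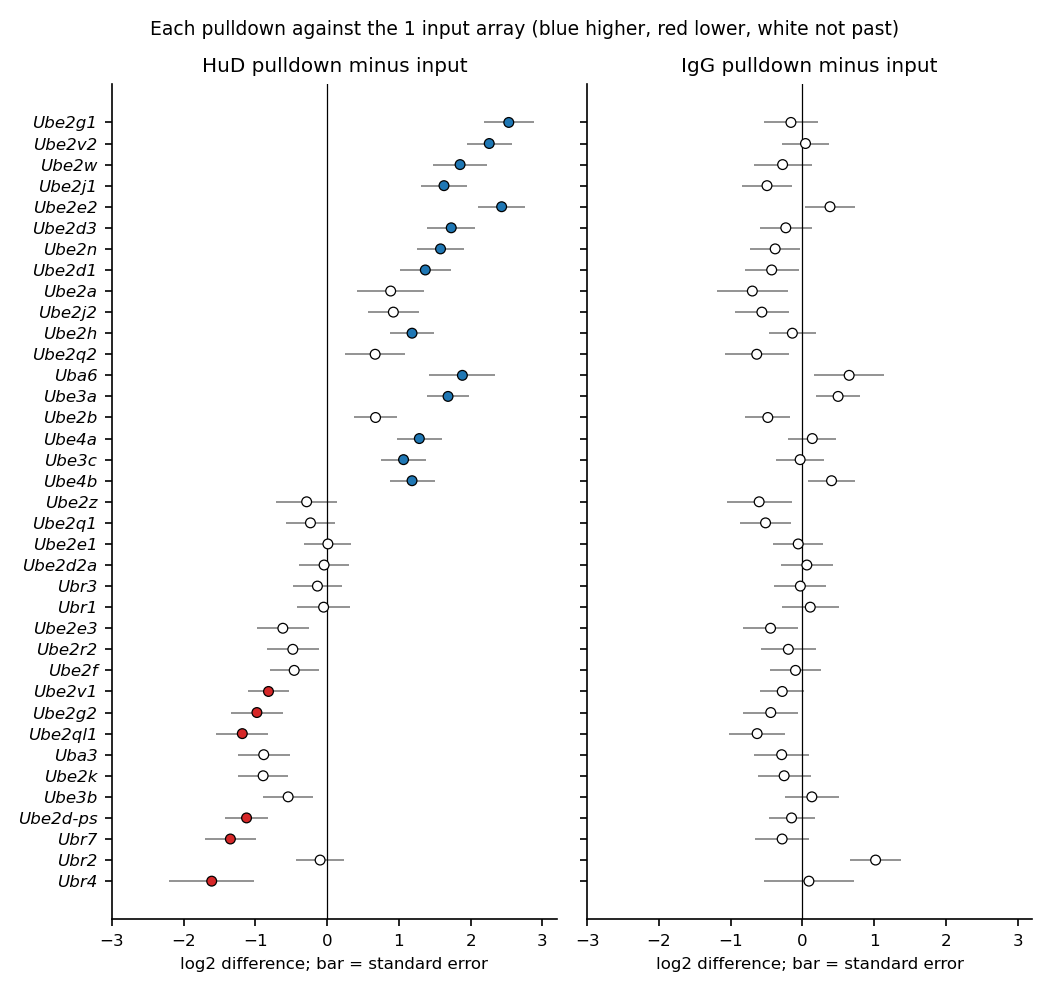
Log2 difference (x axis) of the HuD pulldown (left panel, 3 arrays) and the IgG pulldown (right panel, 2 arrays) from the single input array for the 37 tested genes, in the order of their difference between HuD and IgG. Points are limma estimates and bars standard errors, with blue for higher, red for lower and white for not past the test; 14 points are blue and 6 red on the left, and all are white on the right, where Ubr2 lies farthest out at 1.02.

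Other genes that work with these enzymes were taken from written lists. The RING and U-box ligases, which recruit charged E2s, had 49 tested genes, of which 17 (34.7%) were higher in HuD than in IgG and 11 (22.4%) lower, with a median of 0.17. Siah1a, a RING ligase with roles in neurons, read 2312, 3677 and 2283 in HuD, 294 and 465 in IgG and 438 in input, a difference of 2.76 ± 0.30 (limma adjusted p = 0.000179). Znrf2, Vhl and Rnf111 (a ligase of SUMO-marked proteins) followed with 2.56, 2.39 and 2.35. Vhl was counted in this list but is the substrate receptor for hypoxia-inducible factors, not itself a RING or U-box protein. Of the 20 tested HECT ligases outside the Ube family, 5 (25%) were higher and 5 (25%) lower, with a median of 0.04, where 21.5% and 34% of all genes were. Among them Hectd2, Herc3 and Hecw1 were higher, by 1.70, 1.67 and 1.45, and Trip12 was lower, at -1.55. Once a gene's probe sets were averaged, Hecw1 and Trip12 lost their calls, at 0.28 and -0.06, and Hectd2 and Herc3 were at 0.44 and 0.97. Vhl and Znrf2 were then at 1.45 and 1.10.

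Of 62 tested deubiquitinases, which remove ubiquitin, 15 (24.2%) were higher and 20 (32.3%) lower, with a median of -0.14, shares near those over all genes. Yod1 read 1973, 2317 and 2833 in HuD, 297 and 684 in IgG and 435 in input, a difference of 2.29 ± 0.33 (limma adjusted p = 0.000486). Usp15 and Usp46 were higher by 1.69 and 1.57, the former with 0.50 and no call for the mean of its probe sets. Bap1, a nuclear deubiquitinase of histones, was lower at -1.56, with 555, 797 and 753 in HuD against 2225 and 2007.5 in IgG and 1595 in input. The SUMO pathway, a parallel modification system, had 13 tested genes with 8 (61.5%) higher, 2 (15.4%) lower and a median of 1.00. The SUMO ligases Pias1 and Pias2 were higher by 1.98 ± 0.25 and 1.88 ± 0.25, the SUMO protease Senp5 was higher by 1.60, and Sae1, a subunit of the SUMO E1, was lower at -1.35. Partners of NEDD8, ISG15 and UFM1 had 14 tested genes, with 3 (21.4%) higher, 4 (28.6%) lower and a median of -0.16, again near the shares over all genes. Dcun1d1 and Dcun1d3, which promote the attachment of NEDD8 to cullins, were higher by 2.23 and 2.03, and Ddrgk1 and Ufsp2 of the UFM1 pathway were lower at -1.46 and -1.37. With the mean of a gene's probe sets the differences were smaller, at 0.85 for Pias1, 0.74 for Pias2, -0.65 for Sae1, 1.01 for Dcun1d1, 1.26 for Dcun1d3 and -0.74 for Ddrgk1. Of the genes for ubiquitin itself, 0 were named on this array by a single symbol. No test compared the lists with one another or with the ubiquitin enzyme genes.

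**Figure D5:**
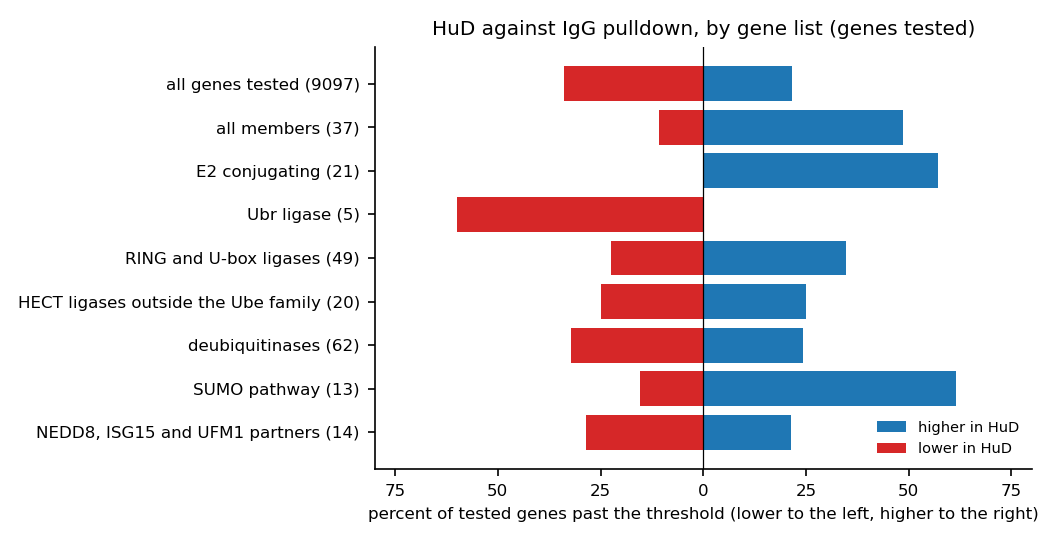
Percent of tested genes past the limma threshold in HuD against IgG (x axis, lower to the left of 0 and higher to the right) for all genes, the ubiquitin enzyme genes, their E2 and Ubr subsets and the lists of partner genes (y axis, with the number tested in brackets). The E2 bar reaches only to the right (12 of 21 genes), the Ubr bar only to the left (3 of 5), and over all 9097 genes the lower share (34%) exceeds the higher (21.5%).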

How the data were processed

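The authors deposited 1 intensity per probe set for 6 arrays, on a linear scale; the software behind these intensities was not given in the sources used here. Of 45101 probe sets, 64 controls were left out, and a platform annotation gave 34945 a single gene symbol, 932 several and 9160 none. Each gene was represented by the probe set whose mean over the 6 arrays was highest. As 3 of the 6 are HuD arrays, this choice and the filter on the mean favour probe sets and genes with high HuD values. Alternatives chose the probe set by input, averaged the probe sets or used no filter. Signals were transformed as log2(signal + 32), and 1 mean per group was estimated by linear models with limma 3.58.1 in R 4.3.3 (eBayes with a trend, 3 residual and 8.4 prior degrees of freedom); its steps were tested on simulated data. The number of arrays limits the precision. Replicate numbers are names given by accession order; title numbers were used for pairing in an added alternative.

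The genes, their roles, the marker and partner lists and the rule for named genes were chosen with earlier results of these data known. That rule takes the largest differences among called genes without overlap, every Uba, Ube3, Ube4 and Ubr gene, E2 genes that share a letter, genes whose probe sets disagree, and up to 4 called genes per partner list. The alternatives covered scaling, pseudocount, filter, probe set choice, trend, title ending as a block, and arrays left out. No sequences were printed.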

Additional observations from a re-analysis of the deposited data

How the results depend on the processing

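Of the 22 genes called in HuD against IgG, 11 kept their call in every alternative that tested them. They were Ube2d1, Ube2d3, Ube2e2, Ube2g1, Ube2h, Ube2j1, Ube2n, Ube2q2, Ube2w and Ube4a among the higher and Ube2d-ps among the lower. The count of genes higher than IgG, 18, was 11 with the mean of a gene's probe sets and between 16 and 18 with 1 array left out. With the mean of probe sets the higher share over all genes was 16.4%, against 21.5% in the main fit. The count of lower genes, 4, was 7 with quantile normalization, 0 when only the 4549 brightest genes were tested, none of these 4 being among them, and between 3 and 6 with 1 array left out. Against input, the 14 higher genes became 11 to 17 with 1 array left out. The 6 lower genes became 1 with 75th percentile centring, 1 with no filter, 2 with the 4549 brightest genes, 3 with the title ending as a block, and 1 to 8 with 1 array left out. Lower probe sets numbered 4 in place of 7 with 75th percentile centring. Ube2v2 lost its higher calls when the brightest probe set in input stood for the gene. The estimates were then negative, at -0.11 against IgG and -0.53 against input, but did not pass (limma adjusted p = 0.796 and 0.353). The cause of the difference between its probe sets was not tested. The IgG to input counts were 0 in all alternatives. In an alternative added after seeing the data, the 2 HuD and 2 IgG arrays whose titles share a number and an ending were paired by a replicate block on the title number, giving 18 higher and 6 lower genes; Ube2k and Ube3b were the gained calls. Deviations of same-numbered arrays correlated at 0.258 over genes, and the labels do not say what the numbers stand for. With 3, 2 and 1 arrays, small differences could not be resolved, and probe sets under the pseudocount carry little information.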
